A study of Homo sapiens with 40 samples.

Results

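Of the 40 RNA libraries in this study of human microglia-like cells, 3 stood apart from the other libraries of their own lines, and their shared expression state is described here. They are TREM2-KO 8, SORL1-KO 7 and SORL1-A528T 7, where each name gives the cell line and the replicate number in its label. They were chosen by their measured expression values, which deviated from the mean of their line across many genes, and each was set against the other libraries of its line: 7 of TREM2-KO, 6 of SORL1-KO and 6 of SORL1-A528T. Every difference between a deviating library and its line is therefore a description without a test, and the 3 libraries are a choice made on these data and not a condition that the labels define.

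Such cells model microglia, the macrophages that live in the brain, and here they were derived from the established embryonic stem cell line H9 and from clones of it edited with CRISPR/Cas9. TREM2-KO cells lack TREM2, a receptor for lipids and apolipoproteins on microglia, on both alleles. SORL1-KO cells carry a homozygous knockout of SORL1, a sorting receptor of endosomes, and SORL1-A528T cells a homozygous missense change in it. TREM2-R47H cells carry a homozygous missense change in TREM2, and WT cells are unedited H9. The libraries number 8 of TREM2-KO, 7 each of SORL1-KO, SORL1-A528T, TREM2-R47H and WT, and 2 each of CD33-SNP and INPP5D-SNP, where the labels name only a SNP in the gene. The CD33-SNP and INPP5D-SNP libraries enter the ranges over the other 37 libraries of the series and the fit on all 40, and no comparison of their own. In every group, progenitors collected on day 11 were differentiated for 28 days in medium with insulin, M-CSF (25 ng/mL), TGF-beta 1 (50 ng/mL) and IL-34 (100 ng/mL), and with CD200 and CX3CL1 (100 ng/mL each) for the last 3 days. The sources used here do not say how many clones or cultures stand behind a line, nor whether the 3 deviating libraries were grown, extracted or sequenced together.

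Proliferating cells switch on the genes of DNA replication through transcription factors of the E2F family, and MYC drives genes for ribosome production and nucleotide synthesis. SREBP factors raise cholesterol and fatty acid synthesis, whereas FOXO factors, which signals from insulin and growth factors through AKT keep out of the nucleus, raise genes that slow the cell cycle. MHC class II molecules present peptides from taken-up material to CD4+ T cells, and their genes are switched on by the coactivator CIITA.

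The promoters below belong to 4 genes tied to DNA replication that were among the genes lowest in all 3 deviating libraries, and to NME1, a nucleoside diphosphate kinase gene that was also among them. They are examples that hold the motif marked. Of the other 15 lowest genes, CDCA7 also held 1 E2F match, whereas POLD2, a DNA polymerase subunit gene, and MYBL2 held none. They run from 250 bases before to 50 bases after the transcription start, 5′ to 3′ on the gene's strand, as given by RefSeq for GRCh38.p14. They lie at chr10:94545538-94545837 on the plus strand (HELLS), chr17:40287629-40287928 on the plus strand (CDC6), chr2:135876394-135876693 on the minus strand (MCM6), chr20:33686336-33686635 on the minus strand (E2F1) and chr17:51153309-51153608 on the plus strand (NME1). Capitals mark the E2F motif, searched as TTTCCCGC or TTTGGCGC on both strands, in the first 4 and the E-box CACGTG, which MYC binds, in NME1.
HELLS: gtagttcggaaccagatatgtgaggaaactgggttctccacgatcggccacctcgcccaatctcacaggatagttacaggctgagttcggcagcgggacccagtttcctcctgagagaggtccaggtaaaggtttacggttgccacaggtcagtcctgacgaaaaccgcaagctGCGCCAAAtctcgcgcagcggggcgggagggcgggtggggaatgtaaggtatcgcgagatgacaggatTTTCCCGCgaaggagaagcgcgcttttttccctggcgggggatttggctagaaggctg
CDC6: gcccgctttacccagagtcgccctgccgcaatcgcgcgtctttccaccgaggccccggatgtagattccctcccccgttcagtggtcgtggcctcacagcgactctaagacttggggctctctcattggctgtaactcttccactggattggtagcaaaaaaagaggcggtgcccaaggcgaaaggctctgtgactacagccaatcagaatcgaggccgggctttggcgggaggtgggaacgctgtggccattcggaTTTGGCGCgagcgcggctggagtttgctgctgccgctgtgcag
MCM6: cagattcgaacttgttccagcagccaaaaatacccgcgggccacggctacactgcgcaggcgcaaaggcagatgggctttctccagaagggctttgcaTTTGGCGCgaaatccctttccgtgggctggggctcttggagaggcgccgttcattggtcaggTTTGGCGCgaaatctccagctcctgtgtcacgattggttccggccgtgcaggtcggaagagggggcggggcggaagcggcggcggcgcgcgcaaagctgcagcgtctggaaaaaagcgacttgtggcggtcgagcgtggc
E2F1: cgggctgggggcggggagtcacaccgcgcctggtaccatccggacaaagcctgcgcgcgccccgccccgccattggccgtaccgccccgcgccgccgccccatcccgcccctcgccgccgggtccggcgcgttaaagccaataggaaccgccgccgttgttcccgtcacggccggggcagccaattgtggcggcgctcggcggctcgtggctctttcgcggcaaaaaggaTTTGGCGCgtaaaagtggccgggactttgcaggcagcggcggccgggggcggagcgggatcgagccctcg
NME1: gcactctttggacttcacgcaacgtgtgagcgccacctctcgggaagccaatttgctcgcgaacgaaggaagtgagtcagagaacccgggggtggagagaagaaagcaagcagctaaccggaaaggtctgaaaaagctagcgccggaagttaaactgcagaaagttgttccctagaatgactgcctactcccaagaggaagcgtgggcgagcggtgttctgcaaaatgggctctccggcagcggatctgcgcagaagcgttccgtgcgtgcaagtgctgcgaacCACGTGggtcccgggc

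Expression was deposited as TPM, a length-corrected abundance that sums to about the same in every library, so the reads behind a single value are unknown. Sequencing depth averaged 45.13 M reads (39.2 M to 64.6 M) per the labels. The 3 deviating libraries had 14004 to 14068 genes at 1 TPM or more, against 13224 to 13909 in the other 19 libraries of the 3 lines. Over the other 37 libraries of the series the range was 13208 to 14086. Mitochondrial transcripts took 12.5 to 14.1% of the TPM in the 3, 10.8 to 13.3% in the 19 and 10.8 to 14.1% in the 37. Spearman correlations of a library's differences with transcript length were 0.034 to 0.042 in the 3, against -0.054 to 0.031 in the 19 and -0.079 to 0.055 in WT; whether length had a part in the differences was not tested. Markers of macrophages in general (12 genes, among them CD68, CSF1R and SPI1) summed to 7939 to 8531 TPM in the 3, against 6010 to 8640 TPM in the 19. Of the microglial markers, CX3CR1 stood at 431 to 528.1 TPM in the 3 and TMEM119 at 1.95 to 2.74 TPM, as levels and not as differences from the lines.

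Differences were taken on log2(TPM + 1) as the deviating library minus the mean of the other libraries of its line, for the 14038 genes that reached 1 TPM in 7 or more of the 22 libraries. A gene was called set apart where all 3 libraries lay outside the range of their own line on the same side and the mean of the 3 differences was at least 1. That held for 591 genes on the higher side (4.21%) and 522 on the lower side (3.72%). Without the condition on size, 2364 genes lay above (16.8%) and 2272 below (16.2%) the range in all 3 lines, and the median difference of all kept genes was 0.05. Because these values are what marked the libraries out, nothing is read from the shares themselves. At the limit, PNPLA7 (1.0002) was just inside and ZNF775 (0.9997) just outside on the higher side, as were ING5 (-1.001) and TIMM10 (-0.999) on the lower side.

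The 3 libraries deviated in much the same genes. Across the 14038 genes, which are not independent replicates, the differences of TREM2-KO 8 and SORL1-KO 7 correlated with Pearson r = 0.79, those of TREM2-KO 8 and SORL1-A528T 7 with r = 0.80 and those of SORL1-KO 7 and SORL1-A528T 7 with r = 0.82. These comparisons share no library. Counted singly, a gene was called where it lay outside its line's range and at least 1 from the mean of the others. TREM2-KO 8 then had 829 higher (5.91%) and 669 lower genes (4.77%), SORL1-KO 7 had 876 (6.24%) and 823 (5.86%), and SORL1-A528T 7 had 755 (5.38%) and 616 (4.39%). Of the 1339 genes called higher in any of them, 394 (29.4%) were called in all 3, as were 347 of the 1125 called lower (30.8%).

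**Figure D1:**
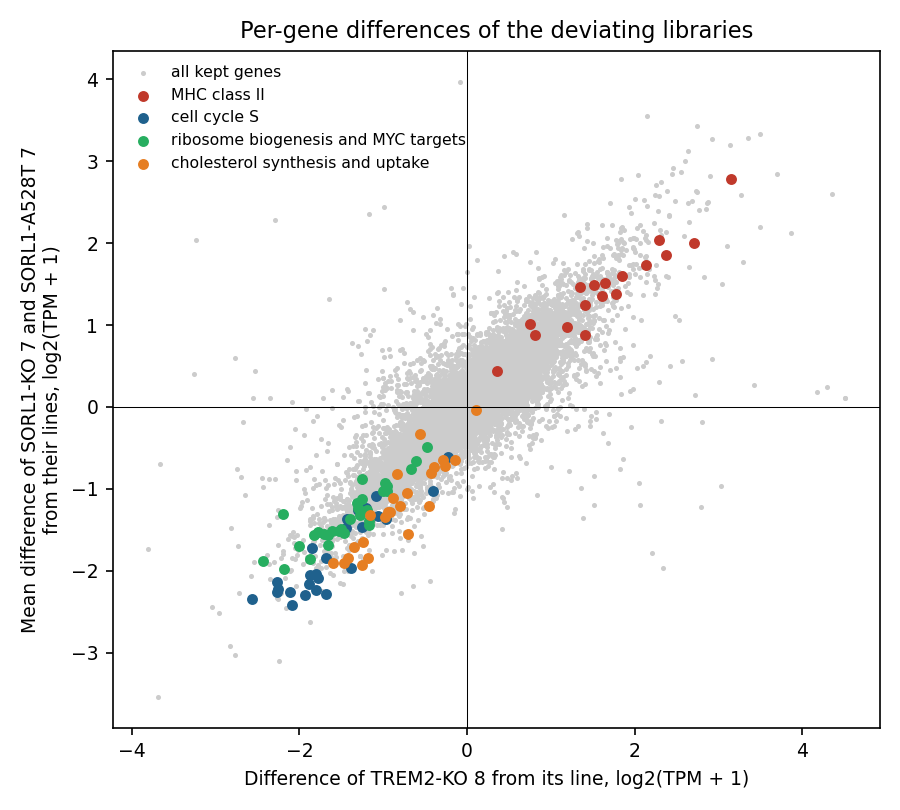
Difference of TREM2-KO 8 from its line (x) against the mean difference of SORL1-KO 7 and SORL1-A528T 7 from theirs (y), both on log2(TPM + 1), 1 point per kept gene, with 4 gene lists coloured. The 14038 points run along the diagonal, with MHC class II genes at the upper right and DNA replication, ribosome biogenesis and cholesterol genes at the lower left.

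Genes of DNA replication made up the most uniform lower group. All 26 genes of the S phase list lay below their line's range in the 3 libraries and 24 were set apart lower, with a median difference of -1.88. The mean log2(TPM + 1) over the list was 3.51 to 3.94 in the 3 deviating libraries, against 4.73 to 5.83 in the other 37 libraries of the series. In bulk RNA, fewer cells in S phase and less of these transcripts per cell cannot be told apart. The 2 members that were not set apart, the replicative helicase subunit MCM5 (-0.48) and the licensing factor CDT1 (-0.82), were lower by less than 1. Markers of pluripotent stem cells, which cycle fast, summed to 8.78 to 10.4 TPM in the 3 libraries, against 13.6 to 28.9 TPM in the 19, and 8 of their 10 genes were below 1 TPM in all 22. Their part in the S phase difference was not tested.

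HELLS, a chromatin remodeller of replicating cells, stood at 4.20 TPM in TREM2-KO 8, 4.24 TPM in SORL1-KO 7 and 4.94 TPM in SORL1-A528T 7. The other libraries of TREM2-KO had 18.8 to 40.8 TPM (median 28.9), those of SORL1-KO 16.9 to 34.7 TPM (median 27.4) and those of SORL1-A528T 21.6 to 34.7 TPM (median 27.6). No library of any of the 3 lines came near the deviating one, and the mean difference was -2.42 ± 0.13 (SD over 3 lines, as for all mean differences given here). MCM6, another subunit of the replicative helicase, had 8.32, 9.65 and 10.7 TPM in TREM2-KO 8, SORL1-KO 7 and SORL1-A528T 7, against 21.4 to 57.2, 24.2 to 57.3 and 34.5 to 58.0 TPM in their lines (medians 47.1, 56.1 and 48.6). The replication licensing factor CDC6 had 3.80, 2.13 and 3.17 TPM, against 8.75 to 26.5, 7.21 to 23.4 and 13.7 to 27.1 TPM (medians 21.97, 20.9 and 18.2). E2F1, which itself drives entry into S phase, had 3.92, 3.19 and 4.54 TPM, against 16.7 to 32.7, 11.7 to 31.4 and 15.2 to 30.2 TPM (medians 20.7, 21.2 and 20.6). In each of these genes the lowest of the other libraries was number 4 of its line. MYBL2 (-2.31 ± 0.07), a transcription factor of cycling cells, and CDCA7 (-2.36 ± 0.23), a partner of HELLS, were likewise among the 15 lowest.

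Mitotic genes were lower to a smaller extent. Of 27 genes of G2 and M phase, 21 lay below the range in all 3 lines but only FOXM1, a transcription factor of mitosis, was set apart (-1.08 ± 0.31), and the list's median difference was -0.61. MKI67, the common proliferation marker, stood at 63.8 TPM in TREM2-KO 8, 37.9 TPM in SORL1-KO 7 and 36.5 TPM in SORL1-A528T 7, against 75.0 to 102, 57.4 to 68.7 and 60.3 to 71.4 TPM in their lines. Of 10 cell cycle inhibitors and pocket proteins, a list drawn up after the values were seen, 2 were set apart higher and 1 lower. CDKN1C (p57) and CDKN1B (p27) were higher by 3.18 ± 0.04 and 1.16 ± 0.05, RBL1 (p107), a relative of RB1 made in S phase, differed by -1.07, and CDKN1A (p21) differed by -0.19 ± 0.10 and was not set apart.

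CDKN1C had 109 TPM in TREM2-KO 8, 80.4 TPM in SORL1-KO 7 and 75.6 TPM in SORL1-A528T 7. The other libraries had 6.86 to 91.3 TPM (median 8.17) in TREM2-KO, 5.07 to 41.3 TPM (median 5.43) in SORL1-KO and 5.48 to 9.11 TPM (median 7.62) in SORL1-A528T. The deviating library was highest in each line, and number 4 was next in all of them.

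Histone genes went the other way from the replication genes. Of 14 kept histone genes, 10 were set apart higher, with a median difference of 1.42, and histone transcripts took 0.053 to 0.060% of the TPM in the 3 libraries, against at most 0.041% in the others. The linker histone gene H1-2 had 68.1, 77.9 and 71.5 TPM in TREM2-KO 8, SORL1-KO 7 and SORL1-A528T 7, against 11.5 to 53.1, 7.68 to 30.6 and 11.3 to 24.7 TPM in their lines (medians 16.4, 15.4 and 15.6). H2AC6, a histone H2A gene, differed by 2.37 ± 0.25 and H2BC5, a histone H2B gene, by 2.13 ± 0.22. Histone genes are near-identical copies of each other, so how reads were shared between them is uncertain.

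Genes for making ribosomes were lower in all 3 libraries, though library number 4 of TREM2-KO was as low. All 31 genes of the ribosome biogenesis and MYC target list had negative mean differences, with a median of -1.36, and 10 were set apart lower. The list mean was 4.22 in TREM2-KO 8, 4.43 in SORL1-KO 7 and 4.60 in SORL1-A528T 7, against 4.18 to 5.97, 4.83 to 6.10 and 5.396 to 6.08 in their lines. MYC had 11.8 TPM in TREM2-KO 8, 16.6 TPM in SORL1-KO 7 and 19.4 TPM in SORL1-A528T 7, against 8.70 to 64.5 TPM (median 59.1), 24.0 to 88.7 TPM (median 81.9) and 54.0 to 81.3 TPM (median 71.0). The mean difference of MYC was -1.86 ± 0.08, but the gene was not set apart, because TREM2-KO 4 (8.70 TPM) lay below TREM2-KO 8. SRM, the spermidine synthase gene, differed by -2.06 ± 0.33 and NOP16, a nucleolar assembly factor, by -2.05 ± 0.13. The ribosomal protein genes themselves had none of 40 set apart and a median difference of -0.18.

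Nucleotide and one-carbon enzymes, grouped into lists only after their values had been seen, were lower as well. In purine and pyrimidine synthesis 11 of 22 genes were set apart lower (median difference -1.12), and in serine, glycine and folate metabolism 7 of 14 (median -1.20). NME1 had 16.5, 21.7 and 35.3 TPM in TREM2-KO 8, SORL1-KO 7 and SORL1-A528T 7, against 34.2 to 187, 63.9 to 213 and 112 to 221 TPM in their lines (medians 172, 195 and 166). PAICS, a purine synthesis enzyme, differed by -2.18 ± 0.16. PHGDH, the first enzyme of serine synthesis, had 1.72, 2.09 and 1.29 TPM, against 3.63 to 15.1, 5.57 to 15.1 and 4.55 to 9.94 TPM (medians 12.5, 12.2 and 7.92). MTHFD1, a folate enzyme, differed by -2.07 ± 0.27, and the aminoacyl-tRNA synthetase gene IARS1 by -1.89 ± 0.10.

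Of the 26 S phase genes, 21 matched a RefSeq promoter, and 13 of these (61.9%) held the E2F motif, against 3.73% of the 10141 kept genes with a promoter. It was present in 9.79% of the promoters of genes set apart lower and 1.45% of those set apart higher. The E-box was present in 36.0% of 25 promoters of the ribosome biogenesis list, against 10.3% of all kept genes. A forkhead motif, TGTTTAC, which FOXO factors bind, was present in 5.08% of the promoters of genes set apart higher, 1.67% of those set apart lower and 2.26% of all. Further motifs were searched for the cholesterol and MHC class II genes. The sterol element TCACNCCAC, which SREBP factors bind, was present in 1 of 18 cholesterol promoters, 0.955% of those set apart lower and 1.11% of all. The X2 box TGACGTNA of MHC class II genes was present in 1 of 13 MHC class II promoters, 3.87% of those set apart higher and 4.95% of all. CCAAT was present in 76.9% of MHC class II, 83.3% of cholesterol and 66.7% of S phase promoters, against 37.1% of all. All motifs were searched on both strands, and they were chosen after the gene groups were seen, and a match is a run of letters, not a measured binding site.

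Energy metabolism was lower in the nuclear-encoded genes and not in the mitochondrial genome. Of 41 subunit genes of oxidative phosphorylation, 35 lay below the range in all 3 lines, with a median difference of -0.56, but only ATP5MC1 and NDUFB2 were set apart. ATP5MC1, which encodes a membrane subunit of ATP synthase, had 44.5, 55.4 and 76.1 TPM in TREM2-KO 8, SORL1-KO 7 and SORL1-A528T 7, against 97.9 to 272, 109 to 272 and 184 to 255 TPM in their lines. The 13 genes of the mitochondrial genome had a median difference of 0.05. In glycolysis 4 of 22 genes were set apart lower (median -0.59), among them ENO1 (-1.56 ± 0.14), an enolase, and LDHA (-1.49 ± 0.22), which makes lactate. Chaperones were lower too, with 8 of 21 heat shock genes set apart lower, and the mitochondrial chaperone HSPE1 differed by -1.96 ± 0.23. HSPA6 was the exception, set apart higher at 1.46 ± 0.13, but it has a near-identical copy, HSPA7, and its reads are uncertain.

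Cholesterol synthesis was lower, most in SORL1-KO 7. Of 24 genes, 14 were set apart lower, and the median difference was -0.86 in TREM2-KO 8, -1.43 in SORL1-KO 7 and -1.01 in SORL1-A528T 7. DHCR7, the last enzyme of the pathway, had 23.9, 19.9 and 25.0 TPM, against 38.6 to 116, 52.4 to 144 and 49.8 to 137 TPM in the lines (medians 75.7, 90.8 and 72.2). Of 18 kept genes listed for cholesterol efflux and its control, 3 were set apart higher and 6 had negative mean differences, with a median of 0.28. The exporters ABCG1 and ABCA1 were the most raised, by 2.23 ± 0.47 and 1.83 ± 0.38. Fatty acid genes split by direction, since FASN, the fatty acid synthase, differed by -2.08 ± 0.42 and CPT1A, the gate for fatty acid import into mitochondria, by 2.56 ± 0.31. CPT1A had 23.8, 14.7 and 12.6 TPM in TREM2-KO 8, SORL1-KO 7 and SORL1-A528T 7, against 1.07 to 8.87, 0.89 to 4.24 and 0.85 to 4.07 TPM, with no overlap in any line.

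**Figure D2:**
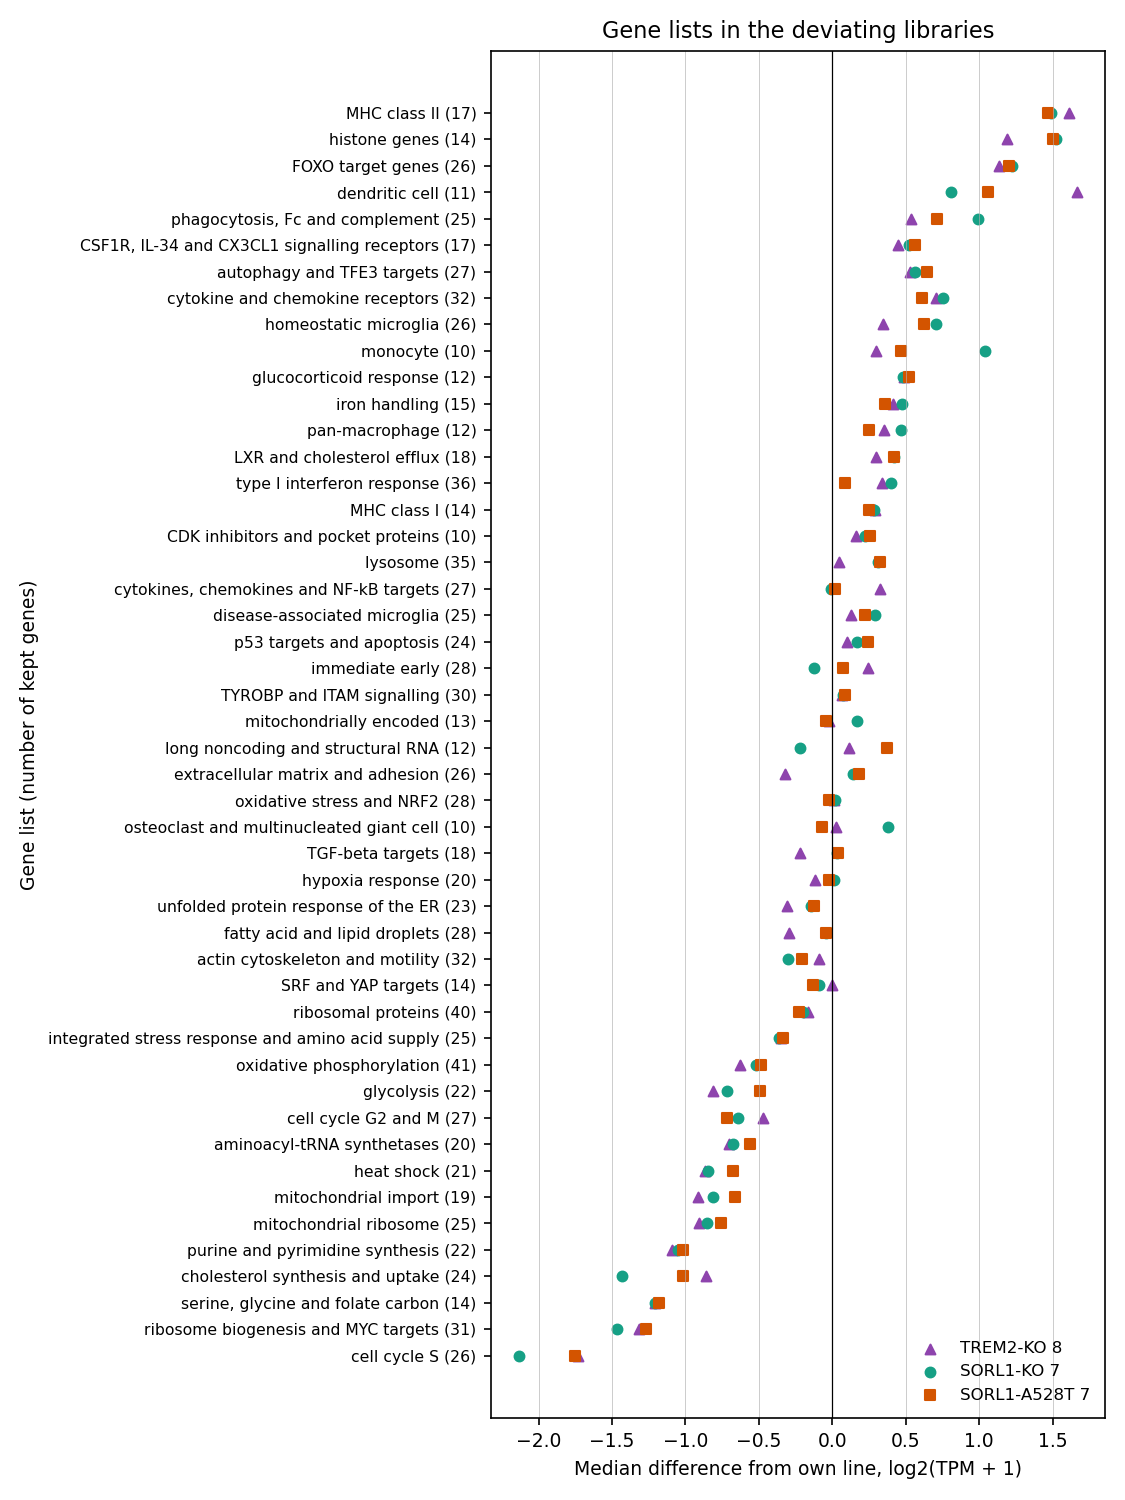
Median difference from own line, on log2(TPM + 1), of the kept genes of each named list, shown for each of the 3 deviating libraries and ordered by the median. S phase genes lie lowest, at a median of -1.88 over the 3, and MHC class II genes highest, at 1.502, with the median of all kept genes at 0.05.

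MHC class II was the leading group on the higher side. All 17 genes of the list had positive mean differences, 14 were set apart higher, and the median difference was 1.502. The list mean was 9.15 in TREM2-KO 8, 8.54 in SORL1-KO 7 and 8.71 in SORL1-A528T 7, against 6.70 to 8.30 in the other 37 libraries. CIITA had 139, 80.0 and 90.5 TPM in TREM2-KO 8, SORL1-KO 7 and SORL1-A528T 7, against 21.3 to 77.6, 15.4 to 40.9 and 16.04 to 23.0 TPM in their lines (medians 23.0, 18.1 and 20.2). The peptide-presenting chain gene HLA-DRA had 4082, 2263 and 2807 TPM, against 967 to 1980, 705 to 1283 and 751 to 960 TPM (medians 1018, 727 and 856). HLA-DOA, which tempers peptide loading, differed most, with 108, 72.0 and 77.2 TPM, against 6.79 to 32.3, 7.88 to 18.02 and 7.15 to 13.3 TPM (medians 9.59, 9.70 and 8.85). All of these genes had their highest value of the line in the deviating library, without overlap. The costimulatory ligand CD86 differed by 1.502 ± 0.10, whereas CD80 (0.86 ± 0.32) and CD40 (0.41 ± 0.13) were not set apart. HLA genes vary between alleles and resemble each other, so the division of reads between them is uncertain.

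Markers listed for dendritic cells, which share MHC class II presentation with macrophages, were higher beside it. Of 11 kept markers 5 were set apart higher, and all 14 listed markers summed to 703 to 2010 TPM in the 3 libraries, against 359 to 950 TPM in the 19. CCR7, a receptor for homing to lymph nodes, had 93.5, 28.3 and 53.9 TPM in TREM2-KO 8, SORL1-KO 7 and SORL1-A528T 7, against 2.26 to 65.7, 1.74 to 15.1 and 1.77 to 32.2 TPM. FCER1A, a chain of the IgE receptor, had 94.5, 8.27 and 13 TPM, against 4.88 to 28.0, 0.55 to 3.75 and 0.98 to 2.84 TPM. Of the 14 listed markers, CLEC9A, XCR1 and FLT3 were below 1 TPM in all 22 libraries, and XCR1 was at 0 in the 3. Whether dendritic-like cells had a part in the MHC class II difference was not tested. Markers of border-associated macrophages had none of 7 kept genes set apart, and all 10 listed summed to 1076 to 1324 TPM, against 376 to 1638 TPM in the 19. Even so, 6 of the 7 had positive mean differences, with a median of 1.08, against 1.07 for the dendritic cell markers. Their list mean lay above every other library of the line in SORL1-KO 7 and SORL1-A528T 7. In TREM2-KO 8 it lay below that of TREM2-KO 4 only.

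Receptors for cytokines and chemokines, a list drawn up after the values were seen, had 8 of 32 kept genes set apart higher. Their median difference was 0.59, and 5 had negative mean differences. The receptor genes IL3RA and CXCR4 led the higher genes when those with at least 5 TPM were ranked by their smallest difference over the 3 lines. IL3RA, the binding chain of the interleukin 3 receptor (chromosome X, 1336616 to 1382689, GENCODE 29), had 29.8 TPM in TREM2-KO 8, 36.6 TPM in SORL1-KO 7 and 29.7 TPM in SORL1-A528T 7. The other libraries had 0.72 to 9.48 TPM (median 1.40), 1.17 to 9.72 TPM (median 2.31) and 1.07 to 4.32 TPM (median 1.89), so the deviating library stood alone in each line and the mean difference was 3.39 ± 0.09. CXCR4, the receptor for the chemokine CXCL12 (chromosome 2, 136114349 to 136118165), had 46.1, 66.2 and 54.5 TPM, against 0.73 to 31.5, 3.32 to 27.3 and 1.89 to 12.1 TPM (medians 2.49, 4.64 and 4.95). CSF2RA, the GM-CSF receptor chain, differed by 2.03 ± 0.05. IL3RA and CSF2RA lie in the region that the X and Y chromosomes share. CSF1R, which binds the M-CSF and IL-34 of the medium, had 1290, 1288 and 1161 TPM, against 705 to 1111, 655 to 925 and 688 to 784 TPM, above the range in all 3 lines but not set apart at 0.73 ± 0.05. The chemokine CCL2, which draws monocytes, led the lower genes by the same ranking, with 32.1, 12.8 and 20.7 TPM, against 81.0 to 448, 41.8 to 214 and 79.7 to 286 TPM (medians 285, 91.0 and 219). MMP9, a secreted protease, differed by -2.26 ± 0.21.

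Genes known as FOXO targets were collected after CDKN1C, PIK3IP1 and YPEL3 had been seen among the highest, so that their count supports nothing. Of 26 kept genes 14 were set apart higher, with a median difference of 1.175, and the list mean was 5.08 to 5.18 in the 3 libraries, against 3.56 to 5.03 in the other 37. PIK3IP1, an inhibitor of phosphoinositide 3-kinase, had 33.7, 44.8 and 38.3 TPM in TREM2-KO 8, SORL1-KO 7 and SORL1-A528T 7, against 2.53 to 30.6, 4.96 to 22.3 and 5.00 to 9.04 TPM (medians 2.94, 5.41 and 5.71). YPEL3, which slows growth of cells, differed by 2.85 ± 0.08, TXNIP, which limits glucose uptake, by 1.64 ± 0.10, and IRS2, an adaptor of the insulin receptor, by 1.36 ± 0.08. SESN1, a stress-responsive inhibitor of mTORC1, was not set apart (0.64 ± 0.03). Autophagy genes were above the range in 15 of 27 cases, and 4 were set apart higher: SQSTM1, a cargo receptor, ULK1, the starting kinase, MAP1LC3A, a membrane tag, and OPTN, another cargo receptor.

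**Figure D3:**
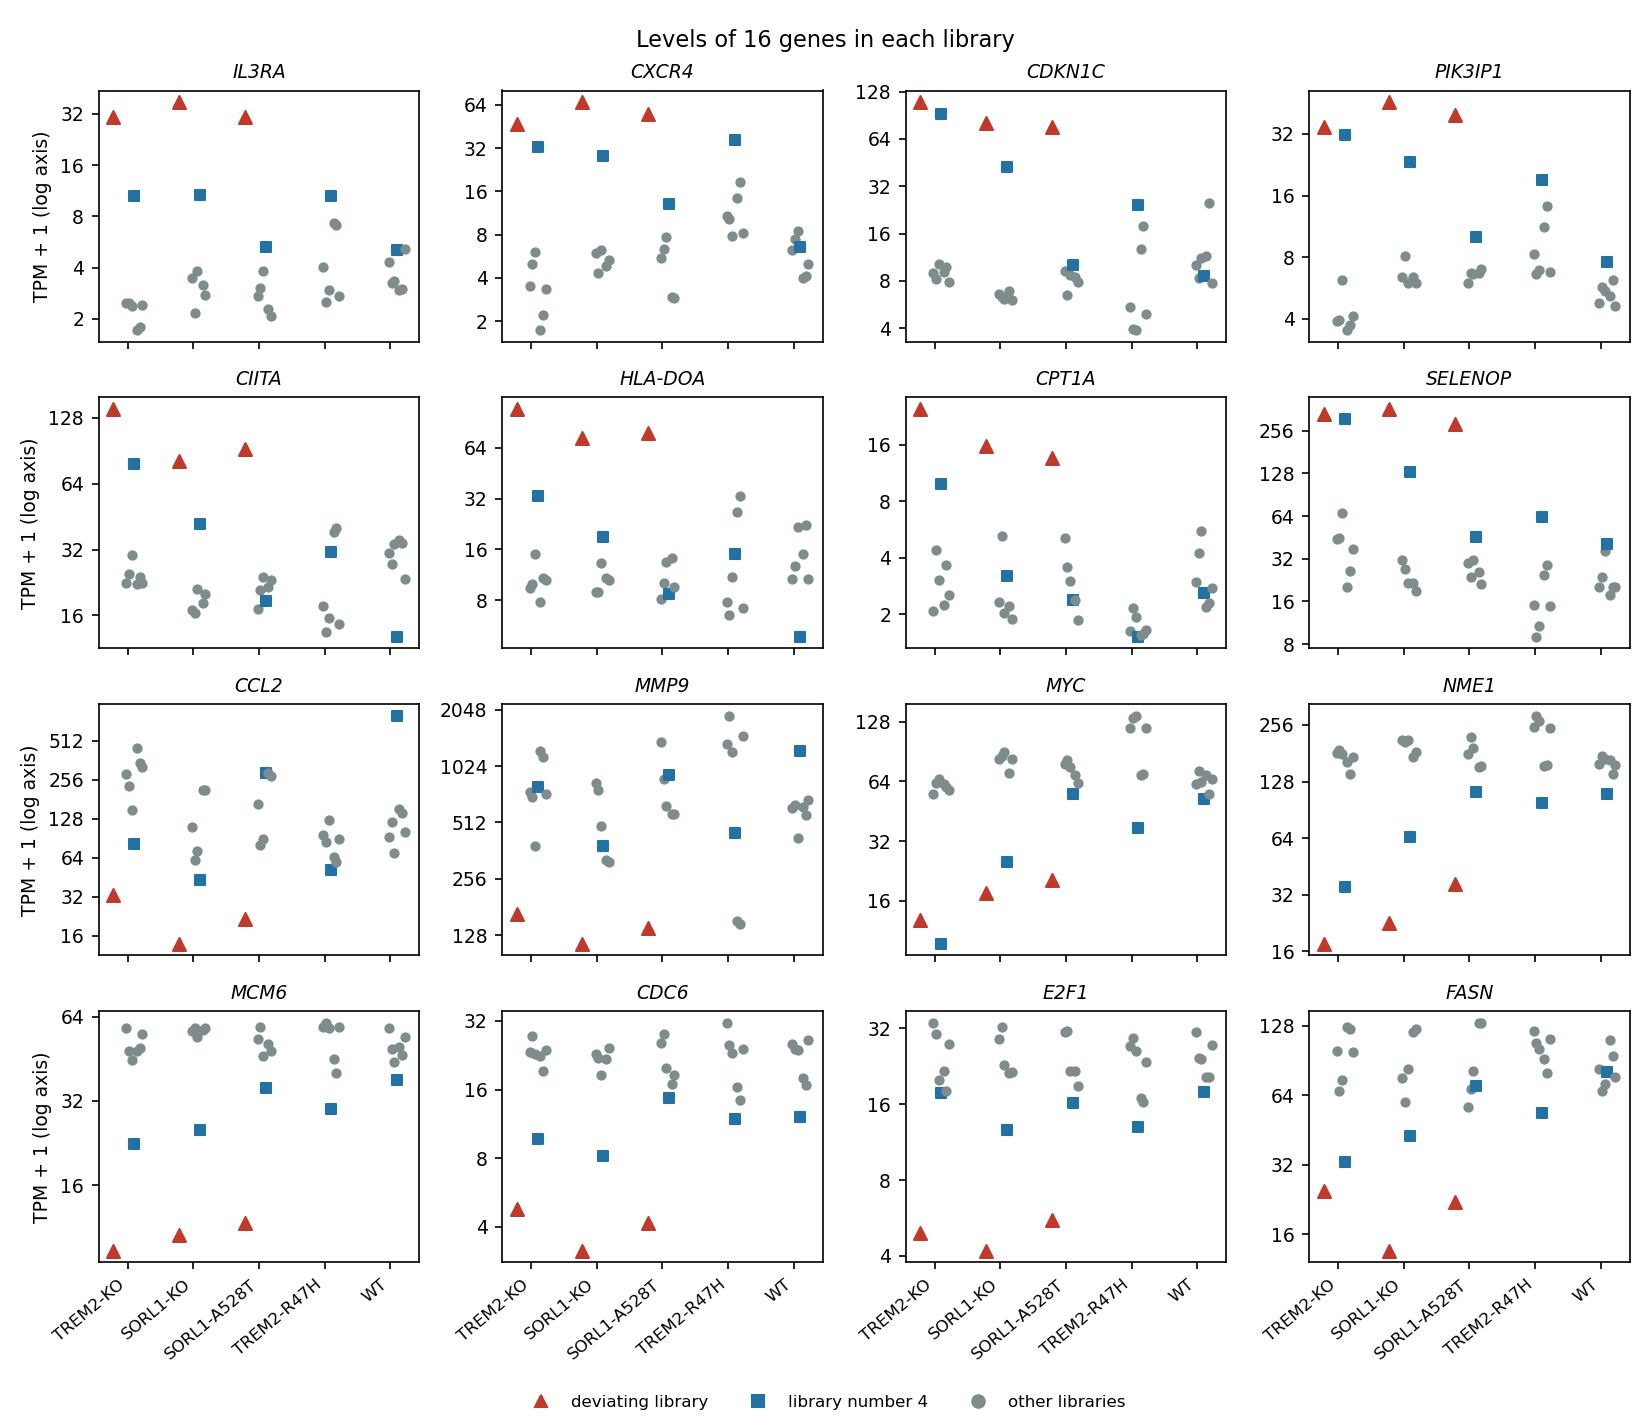
TPM + 1 on a log axis for 16 genes in every library of 5 lines, with the deviating libraries as triangles, the libraries numbered 4 as squares and all others as circles. The triangles lie above the circles of their line in the upper 8 panels and below them in the lower 8, and the squares of TREM2-KO and SORL1-KO often lie between.

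Microglial marker genes were shifted unevenly. Of 26 homeostatic genes 5 were set apart higher and 1 lower. P2RY12, a purine receptor, had 64.2, 71.4 and 62.3 TPM in TREM2-KO 8, SORL1-KO 7 and SORL1-A528T 7, against 41.9 to 58.8, 19.3 to 40.2 and 17.2 to 46.8 TPM, above the range in each line though not set apart (0.91 ± 0.40). CD33, an inhibitory Siglec receptor, was the gene set apart lower, at -1.22 ± 0.22. Among disease-associated genes, SPP1 (osteopontin) had 1447, 11163 and 12366 TPM, against 4455 to 11279, 17162 to 30724 and 20695 to 27919 TPM, lower in all 3, while IGF1, a growth factor, differed by 2.23 ± 0.27 and CST7, a cystatin, by 1.67 ± 0.31. GPNMB, a lysosomal glycoprotein, was not set apart (0.44 ± 0.04).

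Other libraries of the series leaned the same way to a lesser degree, among them number 4 of several lines. Each library's differences from the other, non-deviating libraries of its line were correlated across genes with the mean deviation seen in the other lines. Pearson r was 0.83 for TREM2-KO 8, 0.85 for SORL1-KO 7 and 0.85 for SORL1-A528T 7. It was 0.78 for TREM2-KO 4, 0.70 for SORL1-KO 4, 0.59 for TREM2-R47H 4, 0.36 for SORL1-A528T 4 and 0.18 for WT 4. The remaining 16 libraries of the 3 lines had -0.39 to 0.09, where a library leaning one way pulls the others of its line below 0 by construction. TREM2-R47H 5 and 6 had 0.32 and 0.36. The measure was not computed for CD33-SNP and INPP5D-SNP, which have 2 libraries each. By level, the 591 higher and 522 lower genes averaged 4.52 to 4.75 and 3.58 to 3.78 on log2(TPM + 1) in the 3 deviating libraries. The nearest were TREM2-KO 4, with 4.29 and 4.17, and SORL1-KO 4, with 3.82 and 4.39. The averages were 3.57 and 4.68 in CD33-SNP 1, 3.51 and 4.63 in INPP5D-SNP 1 and 3.60 and 4.52 in INPP5D-SNP 2. CD33-SNP 2 had 3.06 and 4.95. TREM2-R47H 4 had 3.44 and 4.56, SORL1-A528T 4 had 3.39 and 4.80, and WT 4 had 3.31 and 4.89. Over the other 37 libraries of the series the medians were 3.11 and 5.06.

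**Figure D4:**
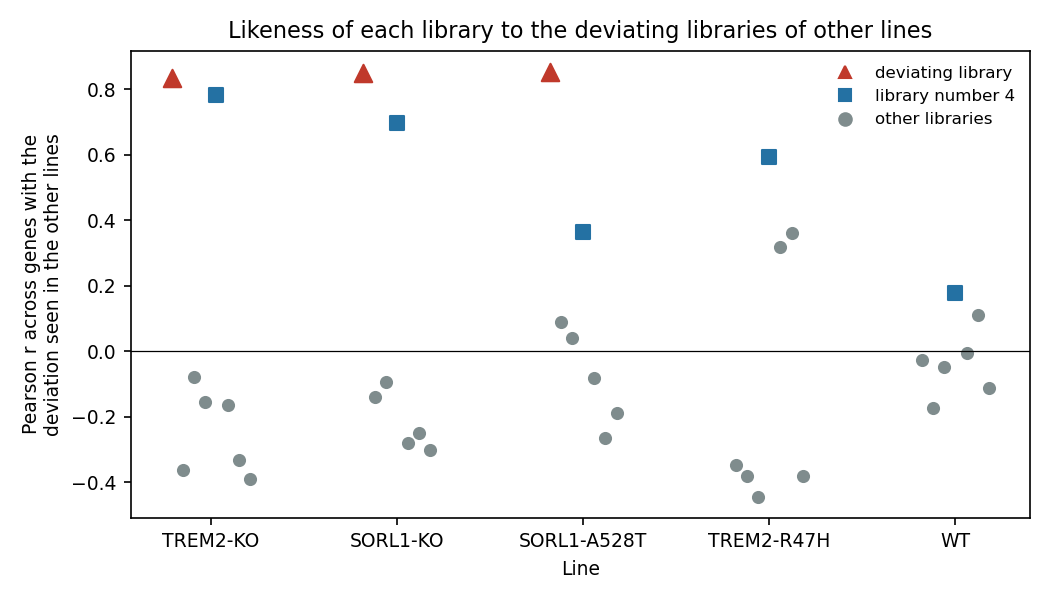
Pearson r, across genes, between each library's difference from its line and the mean deviation in the other lines, by line, with deviating libraries as triangles, number 4 as squares and others as circles. The 3 triangles lie at 0.83 to 0.85, and number 4 has the highest r of the other libraries in every line.

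The lean of number 4 was not equal over gene groups. S phase genes had a list mean of 4.78 to 5.13 in the 5 libraries numbered 4, against 3.51 to 3.94 in the 3 deviating libraries, which stood clear of them. The ribosome biogenesis list mean was 4.18 in TREM2-KO 4, level with 4.22 in TREM2-KO 8. MHC class II had 8.30 in TREM2-KO 4 but 6.92 in WT 4, the lowest of the WT libraries. The sources used here do not say what the replicate numbers stand for. In the order of the sample list the 3 deviating libraries come last and together. CD33-SNP 1 and INPP5D-SNP 1 stand there among the libraries numbered 4. Whether a shared handling of the deviating libraries or of those numbered 4 had a part was not tested.

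**Figure D5:**
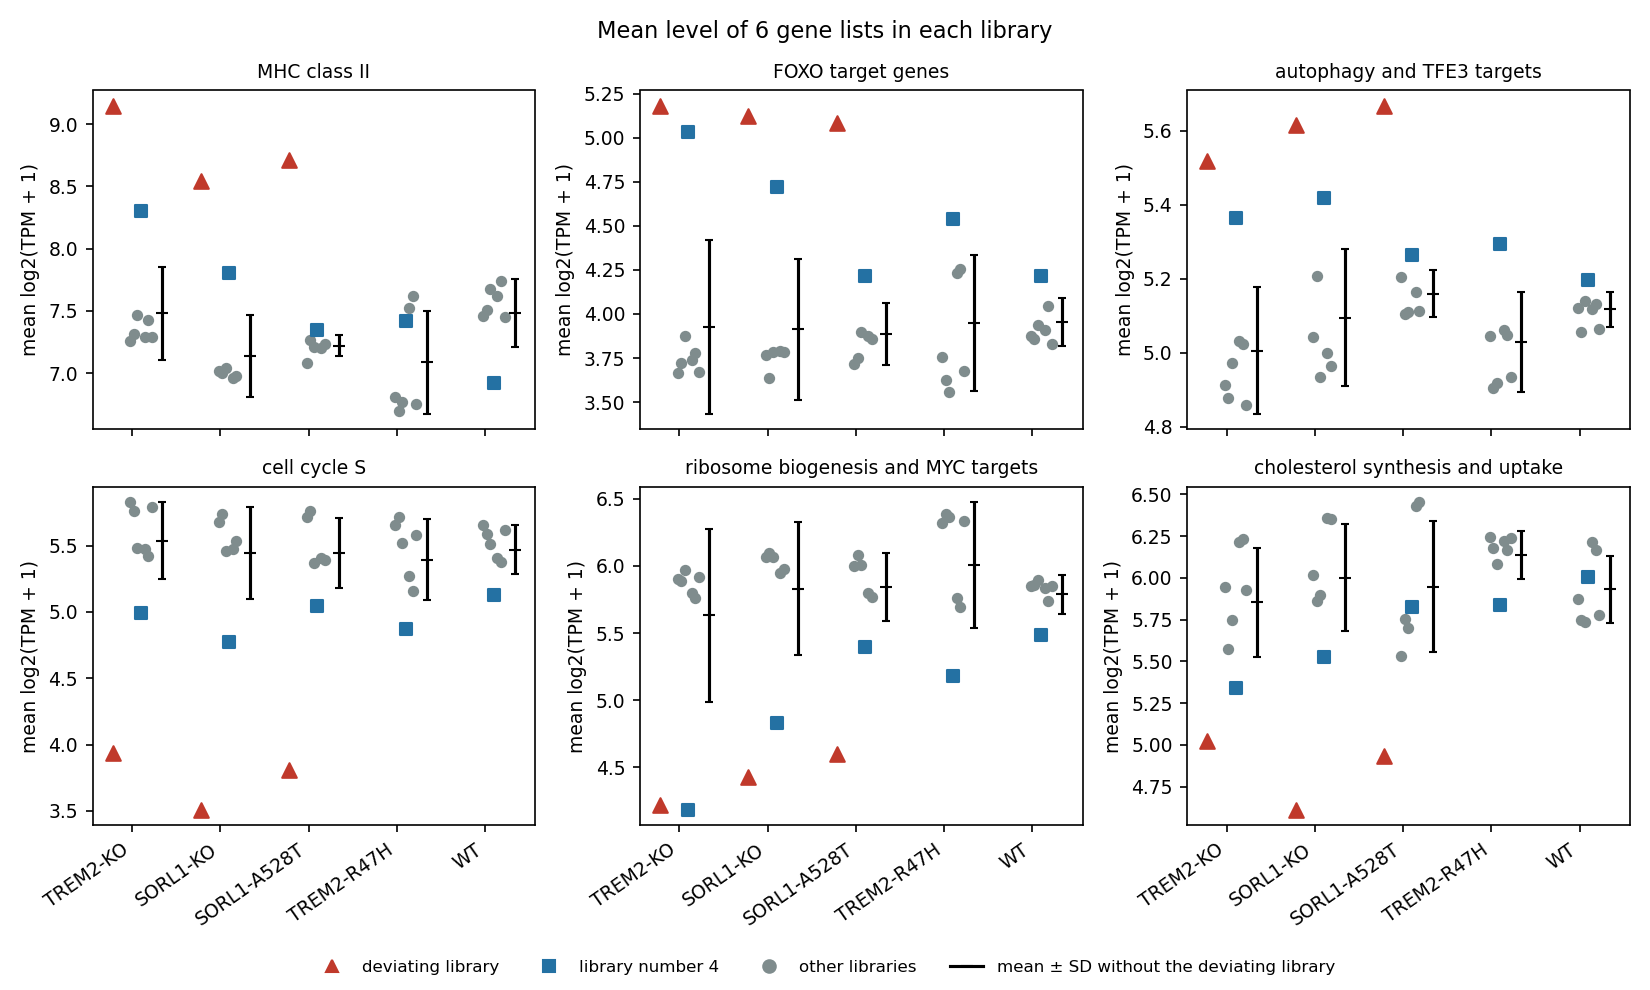
Mean log2(TPM + 1) of the kept genes of main lists in every library, by line, with deviating libraries as triangles, number 4 as squares, others as circles and bars for the mean ± SD without the deviating library. In the S phase and MHC class II panels the 3 triangles, at 3.51 to 3.94 and 8.54 to 9.15, lie outside all other libraries.

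Most genes that told a line from WT stood closer to the own line than to WT in the deviating libraries, with exceptions in both SORL1 lines. TREM2 had 34.5 TPM in TREM2-KO 8, against 24.6 to 46.5 TPM (median 40.7) in the other TREM2-KO libraries and 295 to 585 TPM in WT. SORL1 had 21.5 TPM in SORL1-KO 7, against 12.6 to 17.8 TPM (median 15.1) in the other SORL1-KO libraries and 18.6 to 43.2 TPM in WT, so it lay above its own line's range and within that of WT. Of the 20 genes with the largest called changes against WT in the fit without the 3 libraries, TREM2-KO 8 was closer to its own line than to WT for all 20 and SORL1-KO 7 for 17, the exceptions being SULF2, a sulfatase, CFP (properdin), a complement activator, and IRF4, a transcription factor. For SORL1-A528T 7 it was 5 of the 7 genes called, without TBC1D15, a GTPase regulator, and SUCNR1, the succinate receptor. CAT, the catalase gene that is nearly silent in SORL1-KO, had 2.93 TPM in SORL1-KO 7, against a mean of 1.14 ± 0.66 TPM (SD, n = 6) in its line and 62.6 ± 7.59 TPM in WT (n = 7).

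The labels define the comparison of each line with WT, and those were tested with limma on all 40 libraries, with Benjamini-Hochberg adjusted p below 0.05 as the call. The p-values measure the spread between libraries, which may be technical. TREM2-KO had 42 higher (0.283%) and 197 lower genes (1.33%) of 14855 tested. Without TREM2-KO 8 there were 36 and 154, with 170 of the 239 calls shared, and without all 3 deviating libraries 86 (0.586%) and 186 (1.27%), with 196 shared. With the replicate number as a block the counts were 165 and 422. TREM2-KO 8 is the only library of its number, so this fit takes it out of the change. TREM2 itself was lower by a log2 change of -3.64 (SE 0.17, adjusted p = 8.88e-18 by limma), and -3.65 without the 3. APOE, the lipid carrier of microglia, stood at 818 TPM in TREM2-KO 8, just below the 834 to 2429 TPM of its line. It was lower in TREM2-KO than in WT by -1.05 (SE 0.22, adjusted p = 0.00541), and by -0.96 without TREM2-KO 8 (adjusted p = 0.0154).

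SORL1-KO had 38 higher (0.256%) and 124 lower genes (0.835%), and median-ratio scaling gave 55 and 103. Without SORL1-KO 7 there were 19 and 60, of which 76 were among the 162, and without all 3 libraries 28 (0.191%) and 99 (0.674%), with 100 shared. SORL1 was lower than in WT by -0.96 (SE 0.25, adjusted p = 0.0462). Without SORL1-KO 7 the change was -1.03 and no longer passed (adjusted p = 0.0529), and without all 3 libraries it was -1.03 and passed (adjusted p = 0.0318). APOE was higher by 0.80 and did not pass (adjusted p = 0.0650). SORL1-A528T had 4 higher (0.0269%) and 3 lower genes (0.0202%), 7 and 3 with median-ratio scaling, and 6 (0.0409%) and 1 (0.00681%) without the 3 libraries, 5 of them shared with the 7.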

How the data were processed

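RNA-seq of 40 libraries of microglia-like cells was used, with groups and replicate numbers from the labels. The authors deposited TPM for 60504 genes, 1 column per library; trimming and quantification tools in the submitters' processing notes are RSEM 1.3.1, STAR 2.7, cutadapt 1.18 and DESeq2. The sources used here give no genome build or annotation. Read counts were not used, so depth per library is unknown and the spread between libraries stands in for precision. Symbols and positions came from GENCODE 29 by Ensembl ID for 94.2% of genes.

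Values were taken as log2(TPM + 1) without rescaling. Genes reaching 1 TPM in 7 or more libraries were used: 14038 over the 22 libraries of the 3 lines and 14855 over all 40. Lines were compared with WT with limma 3.58.1 in R 4.3.3 (trend, robust, groups as means, two-sided, Benjamini-Hochberg). On simulated data this fit recovered 193 of 200 changed genes with 12 false calls among 14538 genes. The simulated noise was independent for each gene and library, with an SD taken without the deviating libraries and no effect shared by number. Changed genes were picked above 3 on log2(TPM + 1). These rates therefore need not hold for the real data.

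Residual correlation with the WT library of the same number was 0.13 to 0.35 over 7 pairs in TREM2-KO. In SORL1-KO it was -0.11 to 0.29 and in SORL1-A528T -0.08 to 0.45, negative only in the deviating libraries. The best match was the own number in 3, 4 and 3 of 7 pairs, and the main fit took no pairing. These counts cannot exclude that libraries share structure by number. With the number as a block the fit called more genes in each line, 587 in TREM2-KO, 735 in SORL1-KO and 127 in SORL1-A528T. Without it the counts were 239, 162 and 7. Genes named are TREM2, SORL1 and APOE, the 15 set-apart genes each way with the largest smallest difference over the lines and at least 5 TPM, up to 4 members per list with the largest mean difference, and 4 line-specific genes per line; others were chosen after their values were seen. The libraries, the 51 lists and tests were chosen with earlier results of these data known, and 8 lists and all motifs after the values were seen. Alternatives were pseudocounts of 0.1 and 5 TPM, no filter, median-ratio scaling, the median of the line, a replicate block, and leaving libraries out.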

Additional observations from a re-analysis of the deposited data

Results flagged for a closer look

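Values were looked at again where the highest or lowest library of a line stood far from the nearest other by Dixon's gap ratio, over 60 groups of list means, TREM2, SORL1 and APOE. The deviating libraries were chosen for such gaps, so theirs are a description and no test. They were the list mean of S phase genes in TREM2-KO 8 (3.94), and in SORL1-A528T 7 those of MHC class II (8.71), S phase (3.81), histone genes (4.86), dendritic cell markers (5.61), FOXO targets (5.08), purine and pyrimidine synthesis (4.65) and serine, glycine and folate genes (4.04), all as mean log2(TPM + 1).

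Libraries numbered 4 stood out in lines with no deviating library, where chance exceeds the limit in about 1 of 20 groups. WT 4 was lowest in WT for MHC class II (6.92), ribosome biogenesis (5.48) and serine, glycine and folate genes (4.76). TREM2-R47H 4 was lowest in its line for cholesterol synthesis (5.84) and highest for TREM2 (645.65 TPM) and SORL1 (80.16 TPM).

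TREM2-R47H 4, 5 and 6, from a line outside the comparison, leaned toward the deviating libraries with r across genes of 0.59, 0.32 and 0.36.

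Few genes left the range in opposite directions in different lines, and these differences were not tested. ENSG00000235119 differed by 2.93 in SORL1-A528T 7, 2.72 in TREM2-KO 8 and -2.64 in SORL1-KO 7, RPL39P3 by 2.29 in TREM2-KO 8 and -1.44 in SORL1-KO 7, and ENSG00000235288 by -2.44 in SORL1-KO 7 and 1.51 in TREM2-KO 8. CDC37L1-DT differed by 1.68 in SORL1-KO 7 and -1.38 in SORL1-A528T 7, and MIR6753 by -3.10 in SORL1-A528T 7 and 2.21 in TREM2-KO 8. RPL39P3 is a pseudogene, and its reads cannot be told apart from those of its parent gene.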

How the results depend on the processing

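With a pseudocount of 5 TPM, 274 genes were set apart higher and 291 lower, and the calls in TREM2-KO 8, SORL1-KO 7 and SORL1-A528T 7 numbered 725, 791 and 627, against 1498, 1699 and 1371 at 1 TPM; a larger pseudocount shrinks differences of low genes by construction. Leaving number 4 out of each line, an alternative chosen after seeing the data, gave 857 genes set apart higher, with 590 of the 591 among them, and 785 lower, with all 522. Median-ratio scaling gave 512 higher and 591 lower genes, turning the balance, with the median of all genes at -0.002, against 0.05 without rescaling. Leaving out 1 deviating library at a time gave 639 to 706 higher and 520 to 649 lower genes. No named gene that was set apart changed the sign of its mean difference. Values near 0 have no firm sign. The median of oxidative stress genes was 0.002, smaller than the shift of the median of all genes under scaling. The mean difference of APOE, not set apart (-0.02), joined -0.67 in TREM2-KO 8 with 0.32 in SORL1-KO 7 and 0.27 in SORL1-A528T 7. It turns positive without TREM2-KO 8.

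Against WT, the fit without a filter on low values called 25 higher genes in TREM2-KO, 20 higher and 47 lower in SORL1-KO and 1 lower in SORL1-A528T. In SORL1-A528T, 1 lower gene was called with pseudocounts of 0.1 and 5 TPM and without the 3 deviating libraries, and 7 higher genes with median-ratio scaling. Without the 3 libraries TREM2-KO had 86 higher genes. Leaving out any 1 deviating library gave 36 to 52 higher genes in TREM2-KO, 19 to 55 higher and 60 to 150 lower in SORL1-KO and 1 to 3 lower in SORL1-A528T.

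With the replicate block, TREM2-KO had 165 higher and 422 lower genes, SORL1-KO 230 and 505, and SORL1-A528T 43 and 84. With the block and without the 3 libraries the counts were 405 and 586, 258 and 722, and 55 and 161. Pair correlations were -0.11 to 0.29 in SORL1-KO and -0.08 to 0.45 in SORL1-A528T, lowest in the deviating library of each. Libraries correlated best with their own number in 3 of 7 pairs in TREM2-KO, 4 in SORL1-KO and 3 in SORL1-A528T. What samples of the same number share beyond it is not known. The block and the pairs went by number, so SORL1-KO 7 and SORL1-A528T 7 were set with WT 7. In the sample list they stand beside TREM2-KO 8. In SORL1-KO, APOE passed only under the block (adjusted p = 7.18e-04), and SORL1 missed the threshold without a filter (adjusted p = 0.0942). Depth is unknown, so counting error of low genes could not be given.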

Other observations

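Iron handling genes were mixed in the deviating libraries. Of 15 kept genes 3 were set apart higher and 12 were not set apart, with 9 mean differences above 0, 6 below 0 and a median of 0.36. HAMP, the iron hormone hepcidin, was below the range in all 3 lines (-0.91 ± 0.39). SLC40A1, the iron exporter ferroportin, had 183 TPM in TREM2-KO 8, 150 TPM in SORL1-KO 7 and 136 TPM in SORL1-A528T 7, against 37.5 to 167, 10.2 to 78.5 and 14.5 to 33.0 TPM in the other libraries of their lines. HMOX1, which degrades haem, differed by 1.46 ± 0.27 and NCOA4, the receptor that delivers ferritin to lysosomes, by 1.40 ± 0.03. Of 5 kept metallothionein and zinc genes, 3 were set apart higher. The metallothionein gene MT1G, whose product binds zinc and copper, had 10.0, 11.4 and 6.54 TPM, against at most 4.23, 3.99 and 3.39 TPM. Metallothionein genes are near-identical copies, so their reads are uncertain.

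Immediate early and growth signal genes were mixed, with 2 of 28 set apart higher and 3 lower. FOSL1, an AP-1 subunit, differed by -1.73 ± 0.33 and SPRY4, a feedback inhibitor of growth factor signalling, by -1.77 ± 0.17. Interferon genes had 1 of 36 set apart, OAS1 (1.54 ± 0.12), a sensor of double-stranded RNA, and none of 23 genes of the unfolded protein response was set apart. Of 3 kept epithelial markers, CDH1 (E-cadherin) was set apart higher, with 44.5, 8.06 and 14.1 TPM in TREM2-KO 8, SORL1-KO 7 and SORL1-A528T 7, against at most 6.35, 3.36 and 2.97 TPM, while KRT19, KRT7, AFP and TTR were at 0 in the 3. Pluripotency markers POU5F1 and NANOG were below 1 TPM in all 22 libraries.

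Of the genes called in any deviating library, 612 on the higher side and 489 on the lower side were called in 1 library only. In TREM2-KO 8, MMP7, a secreted protease, had 1.16 TPM, against 2.99 to 31.7 TPM in its line, with 51.3 TPM in SORL1-KO 7 and 44.5 TPM in SORL1-A528T 7. ALDH1A2, which makes retinoic acid, had 0.94 TPM, against 1.5 to 30.2 TPM, and TIMP3, an inhibitor of metalloproteases, had 1.89 TPM, against 3.33 to 22.7 TPM. Stromal markers had a median difference of -0.52 in TREM2-KO 8, 0.80 in SORL1-KO 7 and 0.91 in SORL1-A528T 7, over 7 kept genes.

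SNHG25, a small nucleolar RNA host gene among the 15 lowest, set number 4 apart from the deviating libraries. It was listed at 0 in TREM2-KO 8 and SORL1-A528T 7 and at 0.87 TPM in SORL1-KO 7, whereas TREM2-KO 4, SORL1-KO 4 and TREM2-R47H 4 had 73.0, 110 and 139 TPM. The highest value in SORL1-A528T was 79.7 TPM. The other libraries went down to 1.57 TPM in TREM2-KO, 2.44 TPM in SORL1-KO and 0.67 TPM in SORL1-A528T. SNHG25 thus met the limit of 5 TPM through a single high library per line.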
